A study of Mus musculus with 21 samples.

Results

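10 genes of the motile cilium were followed in RNA from whole mouse testes: 7 axonemal dynein heavy chains (Dnah1, Dnah2, Dnah3, Dnah5, Dnah6, Dnah9 and Dnah11), the transcription factor Foxj1, the radial spoke protein Rsph1 and the tektin Tekt1. Members were the rows of the deposited table whose gene name equals one of these symbols, which gave 10 of 32643 genes. They were chosen by their measured levels: genotype differences in these same libraries, and their levels beside the duct cadherin Cdh16, were already known. Differences between genotypes and relations to Cdh16 are therefore described without a test for these 10 genes. Tests are kept for the treatments and for 95 other motile cilia genes. These tests are not independent of earlier results, with which the lists of the 95 genes were also chosen. The treatment comparisons use the vehicle animals that entered the genotype differences. All 21 animals were 10 days old, of mixed strain (129sv and C57Bl6, per the labels), and gave 1 library of whole frozen testis each. Wild type (WT) mice were given vehicle (animals numbered T66, T71, T79, T81), bisphenol-A, a plastics monomer with weak estrogenic activity abbreviated BPA (T60, T61, T74, T75), or the plant sterol stigmasterol (T78, T98, T118, T119). Mice labelled as knockout (KO) for FXRα, a nuclear receptor for bile acids whose gene is Nr1h4, were given vehicle (T1, T90, T110), BPA (T25, T83, T117) or stigmasterol (T10, T15, T93). Values listed for a group below follow this order of animals. The sources used here give neither the targeting design nor the doses or litters.

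Motile cilia and sperm flagella share a core, the axoneme, in which dynein heavy chains on microtubule doublets slide the doublets against each other. Outer arm dyneins set the beat frequency, inner arm dyneins shape the bend, and radial spokes and the central pair coordinate them. In the male tract these genes are known from germ cells, which begin to build flagellar parts during meiosis and later, and from the ciliated cells of the efferent ducts, which join the testis to the epididymis. FOXJ1 is the main switch for the motile cilia program, and RFX factors bind paired GTTGC-like motifs (X-boxes) in promoters of many cilia genes.

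Promoter windows of RefSeq (build GRCm38.p6, 250 bases before to 50 after a gene start) were matched for 7 of the 10 members, in 8 windows, and none was matched for Dnah3, Foxj1 and Rsph1. Windows of 3 members are printed as examples that hold RFX-type letters, picked after the matches were seen: an inner arm chain, the tektin and an outer arm chain. Capitals mark GTTGCT, the variant GTTGCC or an inverted repeat of GTTGC with 3 bases between the arms, on either strand, and sequences run 5′ to 3′ on the gene's strand.
Dnah6, chr6:73221582-73221881, minus strand: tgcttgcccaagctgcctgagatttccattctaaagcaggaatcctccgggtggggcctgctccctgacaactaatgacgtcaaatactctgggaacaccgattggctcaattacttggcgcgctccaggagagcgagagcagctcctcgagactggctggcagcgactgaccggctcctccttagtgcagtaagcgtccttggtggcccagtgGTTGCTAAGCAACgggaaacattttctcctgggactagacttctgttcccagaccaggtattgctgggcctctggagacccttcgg
Tekt1, chr11:72361833-72362132, minus strand: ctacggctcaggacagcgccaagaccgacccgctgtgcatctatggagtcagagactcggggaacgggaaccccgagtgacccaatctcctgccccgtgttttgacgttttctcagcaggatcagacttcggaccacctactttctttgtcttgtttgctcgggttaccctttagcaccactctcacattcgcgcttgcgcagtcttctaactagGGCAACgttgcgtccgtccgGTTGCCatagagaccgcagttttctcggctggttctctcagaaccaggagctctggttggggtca
Dnah5, chr15:28203516-28203815, plus strand: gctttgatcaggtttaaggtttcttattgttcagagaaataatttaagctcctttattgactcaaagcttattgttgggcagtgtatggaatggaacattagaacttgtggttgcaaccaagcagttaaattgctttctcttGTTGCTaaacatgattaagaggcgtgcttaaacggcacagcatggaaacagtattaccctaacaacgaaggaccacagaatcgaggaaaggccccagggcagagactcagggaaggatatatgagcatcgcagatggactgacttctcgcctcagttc
The Dnah6 window held GTTGCTAAGCAAC starting at position -36 from the gene start, where -1 is the last base before it. This inverted repeat, which also contains GTTGCT on both strands, occurred in 74 of 32851 windows (0.225%). The printed Tekt1 window held GTTGCC at -15 and its reverse complement at -35, letters found in 12.5% of windows. GTTGCT, found in 14.8% of windows, stood at -108 in Dnah5, at -75 on the reverse strand in Dnah9 and at 44 after the start in Dnah2. The forkhead core TGTTTAC, present in 3.65% of windows on either strand, was in none of the 8. Nor was an inverted repeat of GTTGC with 4 bases between the arms, present in 0.174% of windows. The other Tekt1 window and the windows of Dnah1 and Dnah11 held none of the letters searched. These are matches of letters and were not tested for binding.

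The libraries held 35459523 to 61498855 counted reads. By these totals 3 reads, taken as the floor of detection, correspond to 0.0488 to 0.0846 CPM (counts scaled to library size) before TMM scaling. All other CPM values are given after TMM scaling, so this floor is approximate for them. The biological coefficient of variation between animals of a group was 19.2%. All 10 members passed the filter on low counts, as did 20254 genes in all. Nr1h4 itself had 11 to 40 reads in WT and 7 to 22 reads in KO libraries (0.241 to 0.868 and 0.172 to 0.492 CPM), ranges that overlap. As the deleted part is not given, this does not check the labels. The 18 markers of Sertoli cells, the somatic cells of the seminiferous tubule, summed to 6155 to 11323 CPM. Cdh16, the epithelial cadherin used as the reference for duct tissue, split the libraries into 12 between 0.1002 and 2.62 CPM and 9 between 17.6 and 203 CPM. The 9 comprised WT vehicle animal T81, WT BPA animals T60 and T75, KO vehicle animals T1 and T110, KO BPA animals T83 and T117, and KO stigmasterol animals T10 and T93. In these bulk libraries, fewer cells of a type and less RNA per cell cannot be told apart.

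**Figure D1:**
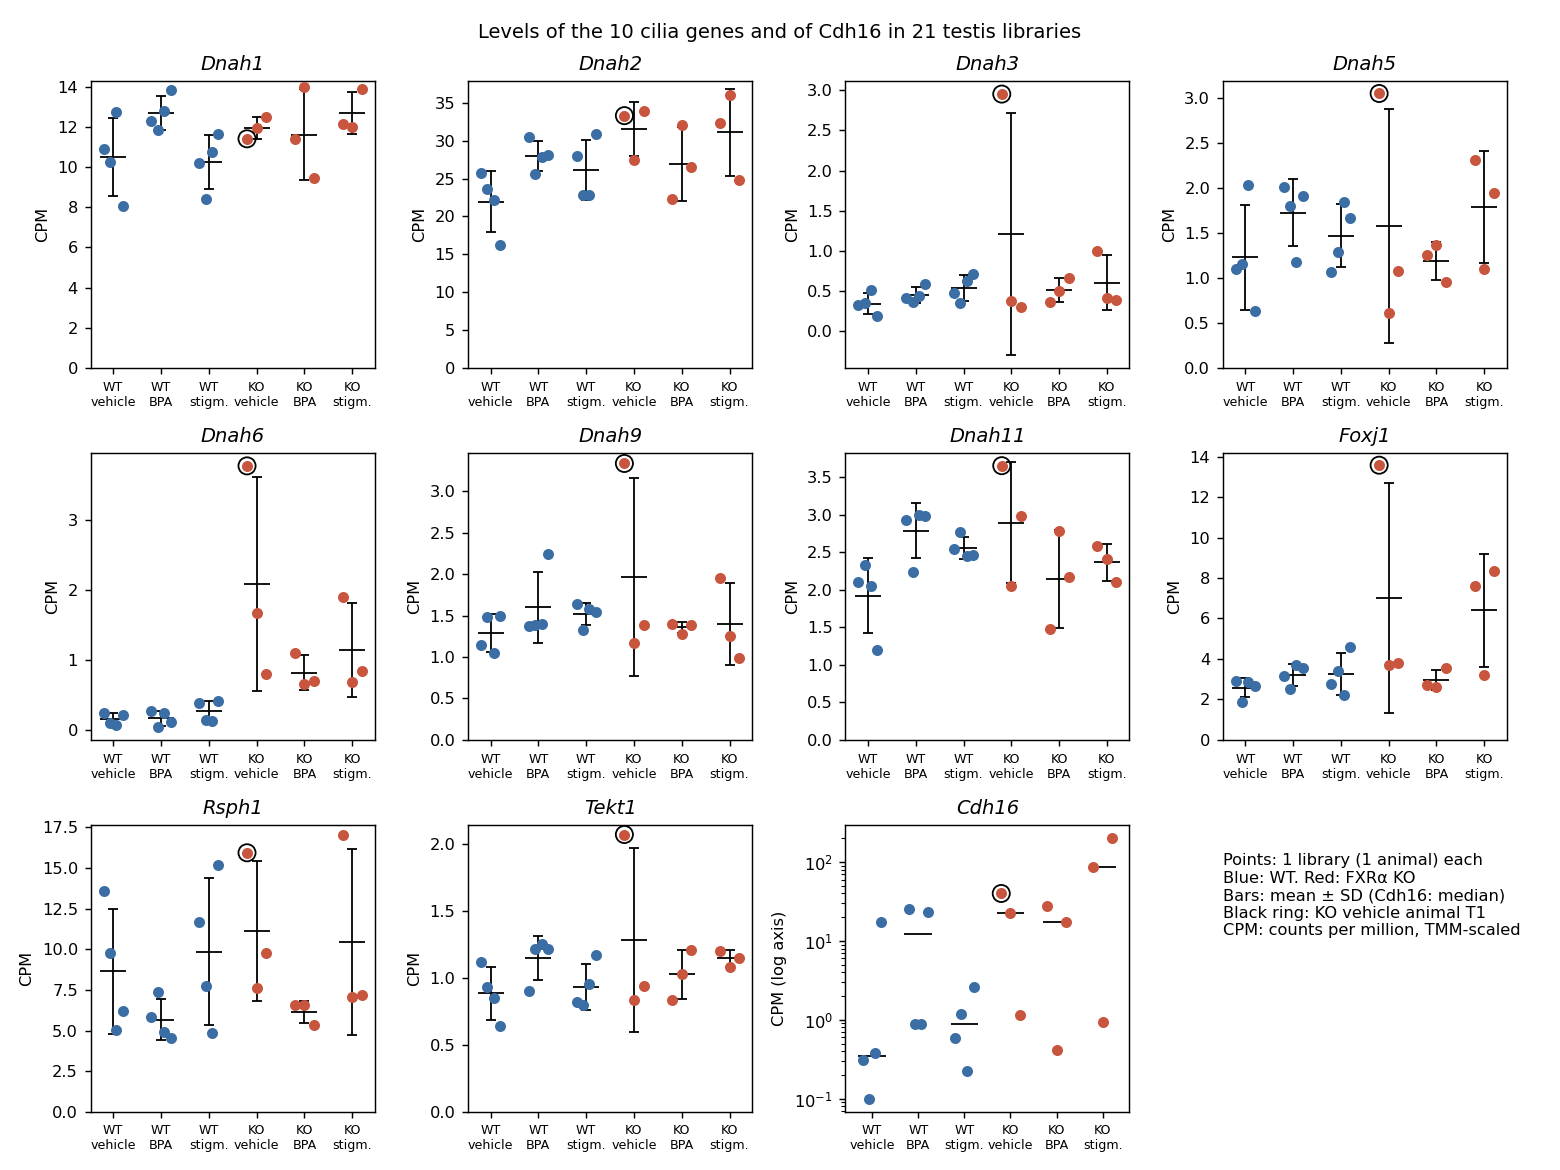
Levels (CPM, linear axes from 0 or just below) of the 10 members and of Cdh16 (log axis) in the 6 groups. Each point is 1 animal, bars are mean ± SD (median for Cdh16), and the ring marks KO vehicle animal T1, which is the highest library for 7 of the 10 members.

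Per kilobase of annotated exon, the only scale on which levels of different genes are compared here, Rsph1 was the most abundant member in WT testes at 5.87 ± 2.67 CPM per kb (SD, n = 12), above the range of every other member. Dnah2 followed at 1.69 ± 0.274, Foxj1 at 1.15 ± 0.279, Dnah1 at 0.855 ± 0.133 and Tekt1 at 0.609 ± 0.124 CPM per kb, each neighbour in this order overlapping the next. Dnah11 came next at 0.168 ± 0.0350 and did not overlap Tekt1, whereas Dnah5 (0.0944 ± 0.0292) and Dnah9 (0.0922 ± 0.0186) were level. Dnah3 at 0.0312 ± 0.0103 and Dnah6 at 0.0149 ± 0.00894 CPM per kb were lowest and overlapped each other. In KO testes Dnah6 stood at 0.102 ± 0.0767 CPM per kb (n = 9), beside Dnah9 and Dnah5 (0.0986 and 0.0973) rather than below Dnah3 (0.0543). The inner arm chains Dnah1 and Dnah2 were thus present at levels far above the ciliary outer arm chains Dnah5, Dnah9 and Dnah11 in both genotypes.

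Dnah6, a heavy chain of the inner arm (ENSMUSG00000052861, chromosome 6, 73017606 to 73221651, mm10), differed most between the genotypes. The WT libraries read 0.241, 0.1002, 0.0670 and 0.213 CPM with vehicle, 0.274, 0.0434, 0.241 and 0.119 with BPA, and 0.122, 0.411, 0.382 and 0.147 with stigmasterol. The KO libraries read 3.77, 0.806 and 1.67 CPM with vehicle, 0.663, 0.693 and 1.11 with BPA, and 1.91, 0.684 and 0.838 with stigmasterol. Every KO library thus lay above every WT library, within each treatment and over all 21 animals. In reads this is 2 to 21 in WT and 29 to 188 in KO libraries, so WT values lie near or, in T61, under the floor.

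The fitted log2 difference of Dnah6, KO over WT, was 3.72 ± 0.61 (SE) under vehicle, 2.24 ± 0.61 under BPA, 2.06 ± 0.57 under stigmasterol and 2.67 ± 0.34 averaged over treatments. Without T1 the vehicle difference was 2.96 and the averaged one 2.42. Over the 21 fits that each left out 1 animal, the averaged difference ranged from 2.42 to 2.80. With log2 Cdh16 and the spermatocyte score in the model it was 1.69 (log2), and without the 9 libraries at 10 CPM of Cdh16 or more it was 2.01. The 3 KO libraries with Cdh16 below 10 CPM (0.411 to 1.16 CPM) held 0.663 to 0.806 CPM of Dnah6, and the 3 WT libraries at or above it (17.6 to 25.3 CPM) held 0.119 to 0.274 CPM. As every KO library lay above every WT library, any split of the libraries shows this order. The part of duct tissue in the Dnah6 difference was not tested.

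Of the other inner arm chains, Dnah1 (chromosome 14, 31260375 to 31323896), a chain known from sperm flagella, varied little, with 8.07, 11.3 and 13.8 CPM as lowest, median and highest WT library and 9.45, 12.01 and 13.98 in KO. Under stigmasterol alone its groups did not overlap, with 8.42 to 11.6 CPM in WT and 12.01 to 13.9 in KO. Dnah2 (chromosome 11, 69420809 to 69549110), which sits in the double-headed inner arm, had 16.3, 25.7 and 30.9 CPM in WT and 22.3, 32.01 and 36.1 in KO as lowest, median and highest. In vehicle animals Dnah2 had 25.8, 23.6, 22.2 and 16.3 CPM in WT and 33.3, 33.9 and 27.4 in KO, without overlap, while its ranges overlapped under BPA and stigmasterol. An antisense gene, Dnah2os, lies within Dnah2 with 16 to 56 reads, and since the library kit does not keep the strand the 2 cannot be fully separated.

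Dnah3 (chromosome 7, 119922717 to 120095177), a single-headed inner arm chain, had 0.186 to 0.714 CPM in WT libraries (median 0.424). KO vehicle animal T1 had 2.95 CPM, KO stigmasterol animal T10 had 0.999 CPM, and the other 7 KO libraries had 0.306 to 0.671 CPM. Its vehicle difference on the log2 scale was 1.796 ± 0.595 with T1 and -0.04 ± 0.43 without it.

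The outer arm chains Dnah5 (chromosome 15, 28203752 to 28472045), Dnah9 (chromosome 11, 65831282 to 66168551) and Dnah11 (chromosome 12, 117877982 to 118199043) are those of respiratory and other body cilia. Dnah5 had 0.639, 1.48 and 2.03 CPM in WT and 0.608, 1.25 and 3.05 CPM in KO libraries as lowest, median and highest. Dnah9 had 1.05, 1.44 and 2.24 CPM in WT and 0.992, 1.39 and 3.33 CPM in KO. Dnah11 had 1.20, 2.46 and 3.00 CPM in WT and 1.48, 2.41 and 3.65 CPM in KO. For all 3 genes the KO maximum is T1, the medians of the genotypes differ by less than the SD between libraries, and the averaged log2 differences are 0.04 ± 0.25, 0.08 ± 0.18 and 0.03 ± 0.13. Without T1 all 3 turned negative, at -0.27, -0.13 and -0.04, and Dnah5 under vehicle went from 0.36 to -0.54. The end of Dnah11 overlaps Cdca7l on the opposite strand, which had 1317 to 3248 reads, so part of the Dnah11 count may not be its own.

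Foxj1 (ENSMUSG00000034227, chromosome 11, 116330704 to 116335399) read 2.90, 1.88, 2.86 and 2.69 CPM in WT testes with vehicle, 3.15, 2.50, 3.68 and 3.58 with BPA, and 2.21, 4.61, 2.76 and 3.39 with stigmasterol. KO testes read 13.6, 3.80 and 3.70 CPM with vehicle, 2.60, 3.55 and 2.73 with BPA, and 7.60, 3.22 and 8.36 with stigmasterol. T1, T10 and T93 stood above all WT libraries, and the other 6 KO libraries lay within the WT range. These are the 3 libraries with the most Cdh16. The averaged log2 difference was 0.77 ± 0.23 (SE) and was 0.46 ± 0.17 without T1, 0.10 with the Cdh16 and spermatocyte covariates, and 0.10 ± 0.24 without the 9 libraries rich in Cdh16.

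Rsph1 (chromosome 17, 31255019 to 31277356), part of the radial spoke head and abundant in testis, had 4.55, 6.80 and 15.2 CPM in WT and 5.34, 7.16 and 17.04 CPM in KO libraries as lowest, median and highest. High values occurred in both genotypes, in WT animals T66, T98 and T118 (13.6, 15.2 and 11.7 CPM) and KO animals T1 and T10 (15.9 and 17.04 CPM). Tekt1 (chromosome 11, 72344722 to 72362442), a filament protein of the doublet wall, had 0.639, 0.940 and 1.25 CPM in WT and 0.836, 1.08 and 2.07 CPM in KO libraries. The highest Tekt1 value is again T1, and the KO library next to it had 1.21 CPM.

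**Figure D2:**
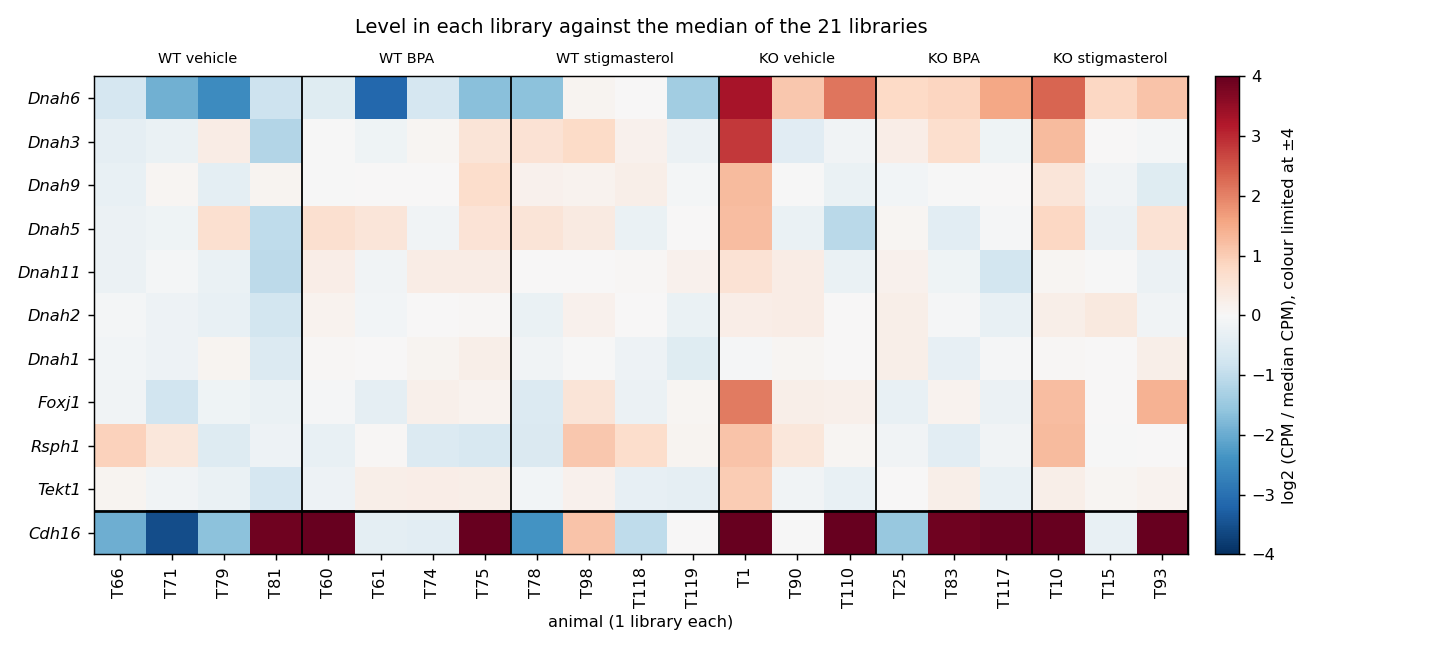
Level of each member and of Cdh16 (bottom line) in each library, as log2 of CPM over the median of the 21 libraries, with colours limited at 4 either way. Libraries are ordered by group, and Dnah6 is above its median in all 9 KO libraries while the column of T1 is red for most members.

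Counted over the members, 10 of 10 had a positive log2 difference under vehicle (median 0.56), 3 under BPA (median -0.13), 8 under stigmasterol (median 0.27) and 10 averaged (median 0.20). Over all genes tested the medians were 0.01, 0.01, 0.02 and 0.01. Without overlap between genotypes were Dnah2, Dnah6 and Foxj1 under vehicle, where 16.3% of all genes tested do not overlap in either direction, Dnah6 under BPA (10.4% of all genes) and Dnah1 and Dnah6 under stigmasterol (17% of all genes). Over all 21 libraries this was Dnah6 alone, beside 1.05% of all genes. Because the members were chosen with these contrasts known, nothing is read from these counts. Without T1, 6 of 10 were positive under vehicle (median 0.11), 8 under stigmasterol (median 0.26) and 7 averaged (median 0.08). Without the 9 libraries rich in Cdh16, only T90, T25 and T15 remain as KO animals. Then 7 were positive under vehicle (median 0.15), 6 under BPA (median 0.08), 4 under stigmasterol (median -0.06) and 5 averaged (median 0.03).

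KO vehicle animal T1 stood apart across the cilia genes. It was the highest of the 21 libraries for 7 of the 10 members (Dnah3, Dnah5, Dnah6, Dnah9, Dnah11, Foxj1 and Tekt1) and was the second for Rsph1. It was also the highest for 38 of the 89 other cilia genes that passed the filter (42.7%), against 5.01% of all genes tested, and no other library exceeded 10.1% of these 89. By function these were 9 of 13 ciliogenesis regulators, 7 of 14 tektins and inner microtubule proteins, 6 of 11 radial spoke genes, 5 of 12 central pair genes, 5 of 21 assembly and docking factors, 3 of 9 other heavy chains and 3 of 9 intermediate and light chains. KO stigmasterol animal T10 was the second library for 23 of these 45 genes (7 members and 38 others).

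In T1 the level was 11.5 times the median of the other 20 libraries for Dnah6, 7.11 times for Dnah3, 4.26 times for Foxj1, 2.40 times for Dnah9 and 2.39 times for Dnah5. Among genes named after their values were seen, Lrrc23, a spoke-associated protein, was 13.8 times the median (3.49 against 0.254 CPM) and Dynlrb2, a dynein light chain, 11.2 times (1.25 against 0.111 CPM). Gmnc and Mcidas, which switch on multiciliated cell fate, reached 0.843 and 1.10 CPM in T1 against medians of 0.0738 and 0.273 CPM. Rsph4a, a spoke head protein of body cilia, reached 2.05 CPM against 0.311 CPM. T1 also had high values of duct epithelium markers, with 88.0 CPM of Spink8 and 31.7 of Krt8, against medians over all libraries of 1.15 and 4.53 CPM. Its spermatocyte score, 0.932, was the third highest of the 21, so markers of both tissues were high in it and their part in the cilia levels was not tested.

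**Figure D3:**
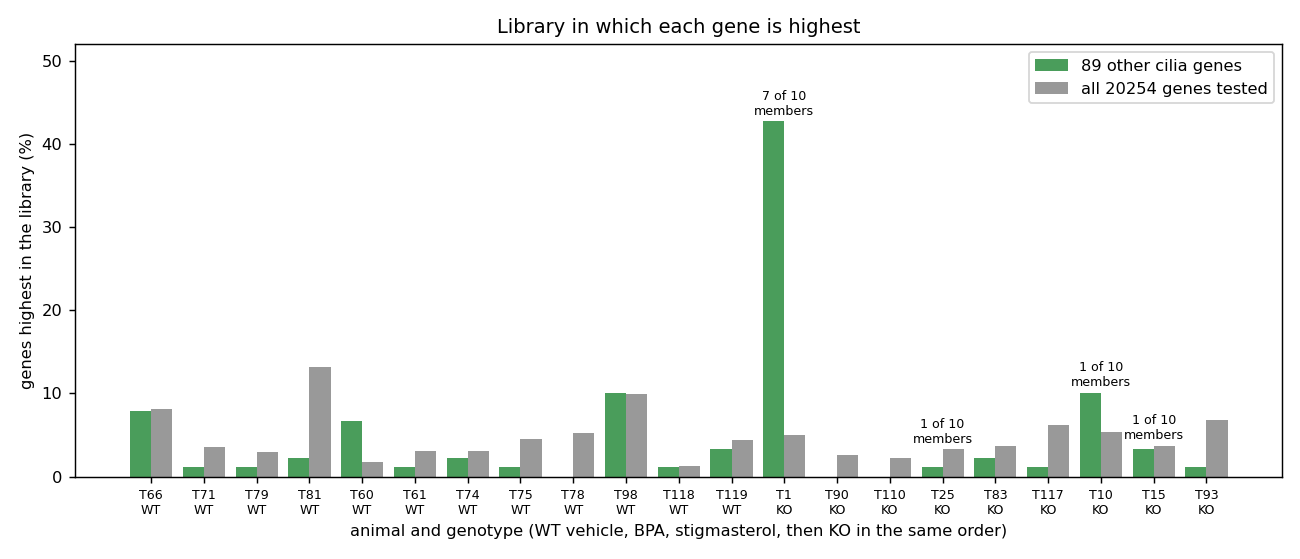
Share of genes whose highest level falls in each library (bars, percent) for 89 other cilia genes (green) and all genes tested (grey), with the number of members written above. T1 holds 42.7% of the cilia genes and 5.01% of all genes.

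Since Cdh16 separates the libraries into low and high sets, correlations are given within each set, across libraries on log2 levels, as descriptions. Foxj1 followed Cdh16 in both, with r = 0.89 and rho = 0.78 over the 12 libraries under 10 CPM (r = 0.73 without the 2 farthest) and r = 0.70 and rho = 0.67 over the 9 others (r = 0.75 without the 2 farthest). For Dnah6 r was 0.37 in each set, with rho of 0.44 and 0.55. Both sets mix WT and KO libraries, which Dnah6 separates. With the sets pooled, Dnah6 had r = 0.53 and rho = 0.78 within KO (0.58 and 0.81 without T1). Within WT, where it had 2 to 21 reads, these were 0.27 and 0.29. In the 9 libraries rich in Cdh16 rho was 0.77 for Dnah5, 0.62 for Dnah1 and 0.58 for Rsph1, and 0 to 0.40 for the remaining members. Without the 2 farthest libraries, T93 and T10, all 10 members had r of 0.54 to 0.78. T1, the highest library for 7 of the 10 members, then had the most Cdh16. The same step in the 12 libraries under 10 CPM gave r of -0.63 for Dnah3, -0.42 for Dnah5 and -0.13 for Dnah1. The other members had r of 0.05 to 0.73 there. Adjusted for the 6 groups and the spermatocyte score, Dnah6 was 0.20 ± 0.05 and Foxj1 0.14 ± 0.04 log2 units higher per doubling of Cdh16. Dnah1, Dnah2 and Dnah11 had slopes of -0.02 ± 0.02, -0.02 ± 0.01 and -0.03 ± 0.02, and the other 5 members had positive slopes up to 0.10.

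The library with the most Cdh16 was high for some members and low for others. KO stigmasterol animal T93 had 203 CPM of Cdh16 and T1 39.9. T93 held 24.8 CPM of Dnah2, 0.393 of Dnah3, 0.992 of Dnah9 and 2.103 of Dnah11, all below their medians over the 21 libraries. In the same library Dnah1 (13.9 CPM), Dnah5 (1.95 CPM), Dnah6 (0.838 CPM), Foxj1 (8.36 CPM) and Tekt1 (1.15 CPM) were above theirs. Rsph1 (7.16 CPM) was at its median. The 30 duct epithelium markers summed to 174 to 221 CPM in the WT vehicle and stigmasterol groups together, 189 to 374 in WT BPA, 248 to 629 in KO vehicle, 243 to 489 in KO BPA and 251 to 935 CPM in KO stigmasterol. Epcam, Esrp1 and Spint1 alone had at least 40.15, 39.0 and 23.6 CPM in every library, so the sum has a base that does not follow Cdh16. It was 209 CPM in T81 (17.6 CPM of Cdh16) and 221 CPM in T98 (2.62 CPM of Cdh16). T93 was highest for 19 of the 30 markers and T1 for 4. Rnase9, a marker of the epididymis proper, had no read in 12 libraries and at most 0.0513 CPM, and Rnase10 at most 0.117 CPM. Other epididymal genes of the list were not near the floor in every library, with up to 156 CPM of Crisp1 and 7.18 CPM of Ros1 in T93. The part of duct tissue in the member levels was not tested.

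**Figure D4:**
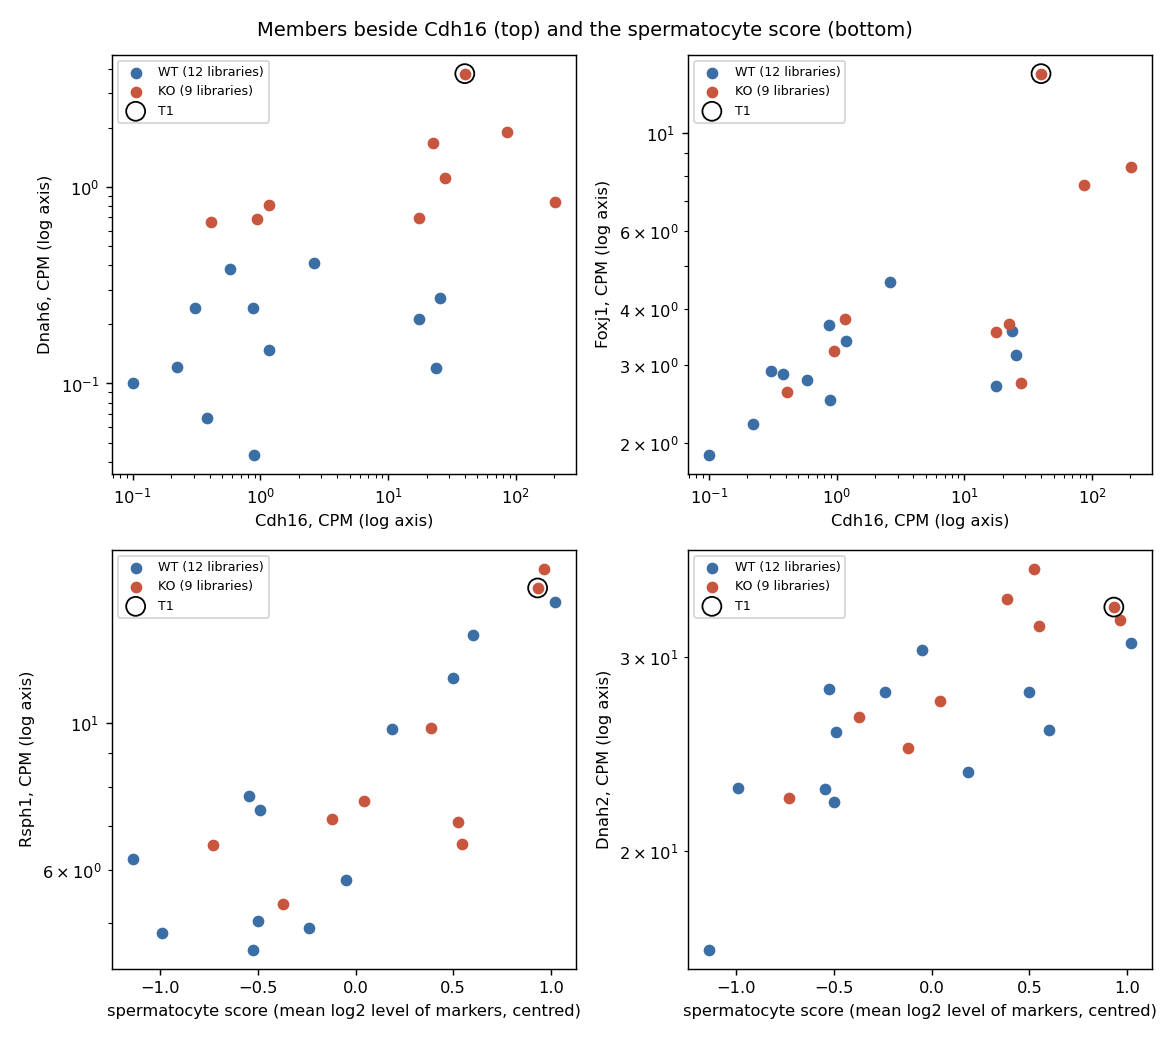
Top: Dnah6 and Foxj1 against Cdh16 (CPM, log axes). Bottom: Rsph1 and Dnah2 (CPM, log axis) against the spermatocyte score, the mean log2 level of 29 spermatocyte markers centred over libraries. WT is blue, KO red, and T1 is ringed. All KO points of Dnah6 lie above all WT points.

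The germ cell side was read from a spermatocyte score, the mean over 29 markers of meiotic prophase of the log2 level centred over the libraries, which ran from -1.14 in WT vehicle animal T81 to 1.02 in WT stigmasterol animal T98. Rsph1 followed it with r = 0.80 and rho = 0.74 (r = 0.80 without the 2 farthest libraries), and within WT and KO with r = 0.83 and 0.77. Dnah2 did so with r = 0.79 and rho = 0.76 (r = 0.74 without the 2 farthest), and r = 0.68 and 0.88 within WT and KO. The adjusted slopes were 0.76 ± 0.12 for Rsph1, 0.28 ± 0.04 for Dnah2 and 0.88 ± 0.21 for Dnah6, in log2 units per unit of score, and the other members had positive slopes of 0.08 to 0.60. For Dnah6 r with the score was 0.54 over all libraries and 0.58 within WT, where it had 2 to 21 reads. Within KO its r was 0.44 and rho 0.22, and without T1 these were 0.17 and -0.10. Of 20 spermatid markers 4 stayed below 0.2 CPM in every library: Prm2, Pgk2, Adam3 and Catsper1, the last without a read in any. The markers outside these 4 reached higher levels, among them Prm1 at up to 0.285 CPM and Spaca1 at 1.18 to 2.51 CPM. Gapdhs had 1.74 to 3.70 CPM and Tex101, which other germ cells also express, 40.3 to 335 CPM. All points share the libraries, their depth and the same normalisation.

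For the other cilia genes the same slopes were tested with edgeR's quasi-likelihood test, Benjamini-Hochberg adjusted over 20254 genes. With the spermatocyte score 35 of 89 rose and none fell, while 17.5% of all genes rose and 17.8% fell with it. Every list held such genes: 7 of 9 other heavy chains, 3 of 9 intermediate and light chains, 7 of 21 assembly and docking factors, 3 of 11 radial spoke genes, 4 of 12 central pair genes, 3 of 14 tektins and inner microtubule proteins and 8 of 13 ciliogenesis regulators. The median slope was 0.26 log2 units per unit of score over the 89 genes and -0.01 over all genes.

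Examples with the smallest p were the spoke gene Rsph10b (slope 1.37 ± 0.08, adjusted p = 3.39e-10), the nexin-dynein regulatory gene Lrrc48 (0.75 ± 0.06, 5.83e-08), the intermediate chain Dnaic1 (0.87 ± 0.10, 2.23e-06) and the inner arm chain Dnah12 (1.06 ± 0.12, 2.62e-06), all from edgeR. Rfx2, an RFX factor needed in the male germ line, had a slope of 0.42 ± 0.05 (edgeR adjusted p = 1.21e-05) and the sperm outer arm chain Dnah8 one of 0.47 ± 0.08 (1.00e-04). With Cdh16, 2 of 89 rose, both radial spoke genes: Rsph4a (0.26 ± 0.07 per doubling of Cdh16, edgeR adjusted p = 0.0462) and Nme5 (0.15 ± 0.04, 0.0392). This is to be read against 2.19% of all genes that rose with Cdh16. None fell, and 21 of 89 had an unadjusted p under 0.05, beside 3121 of all 20254 genes. Neither was called without the filter on low counts or with Cdh16 as the lone covariate.

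**Figure D5:**
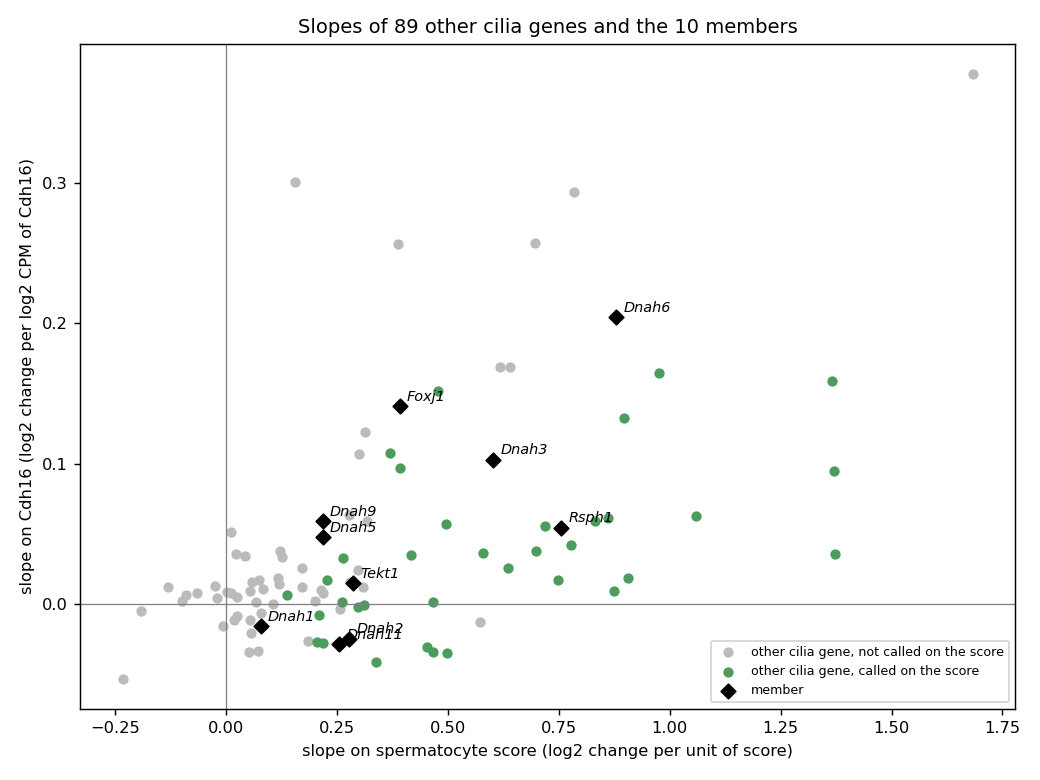
Slope on the spermatocyte score (x axis, log2 change per unit of score) against slope on Cdh16 (y axis, log2 change per log2 CPM) for 89 other cilia genes, green where called on the score, and the 10 members (black diamonds). All members lie right of 0 on the score, and Dnah6 and Foxj1 lie highest on the Cdh16 axis.

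Between genotypes, averaged over treatments, 15 of the 89 other cilia genes were called by edgeR, 8 higher and 7 lower in KO, beside 13.9% of all genes tested. Higher were the outer arm chain of sperm Dnah17 (log2 difference 0.39 ± 0.09, edgeR adjusted p = 0.00887), the inner arm chain Dnah10 (0.46 ± 0.14, 0.0318), the central pair genes Spag16 (0.70 ± 0.15, 0.00519) and Spag17 (1.08 ± 0.30, 0.0212), Tekt2 (0.36 ± 0.09, 0.0158), the spoke gene Rtdr1 (0.66 ± 0.19, 0.0244), Lrrc23 and the intermediate chain Dnaic2. Lower were the ruler protein Ccdc39 (-0.38 ± 0.06, 1.60e-04), the central pair gene Cfap54, listed as 4930485B16Rik (-1.65 ± 0.28, 6.14e-04), Mns1 (-0.30 ± 0.05, 0.00122), Ccdc103 (-0.65 ± 0.13, 0.00388), Rsph3b, Ulk4 and Spag1. Under vehicle 3 were called (Rtdr1 and Dnah17 higher, Ccdc39 lower, beside 2.92% of all genes), under BPA Ccdc39 alone (lower, beside 0.859%) and under stigmasterol 7 (4 higher and 3 lower, beside 7.21%).

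These counts leaned on particular libraries. Without T1 the averaged count was 8 (3 higher and 5 lower), and under vehicle 1 gene was called. Over all genes the calls without T1 went from 2820 to 2318 averaged and from 592 to 242 of 20558 under vehicle. Genes at least 2-fold higher in KO under vehicle numbered 14 of 89 with T1 and 1 without it (750 and 585 over all genes), and the median difference of the 89 went from 0.30 to 0.06. Without the 9 libraries rich in Cdh16 no other cilia gene was called in any genotype contrast by edgeR, with 11 of 88 at an unadjusted p under 0.05 in the averaged one. Over all 20842 genes tested without them the calls also went down, from 2820 to 257 averaged, from 592 to 56 under vehicle and from 1461 to 85 under stigmasterol. In the averaged contrast 19 of 27 duct epithelium markers tested were higher in KO, 9 of 18 Sertoli markers were lower, and 5 of 7 fat markers were higher. The 8 fat markers listed summed highest in KO BPA animal T117 (103 CPM), then in WT BPA animal T61 (28.3 CPM) and in T1 (27.2 CPM). T1 was the second library for Adipoq, Fabp4, Car3, Cidec and Cfd, but not for Plin1, Lep and Pck1. Its Plin1 level, 8.74 CPM, was below the median of 10.9 CPM, and Pck1 was highest in T61. These markers' part in the cilia counts was not tested.

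Neither treatment gave a called member in the edgeR fit without covariates. In WT animals given BPA, 9 of 10 members had positive log2 differences from vehicle (-0.61 to 0.53), and the smallest edgeR adjusted p was 0.193, for Dnah11 (0.53 ± 0.22), beside 0% of all genes called. With log2 Cdh16 and the spermatocyte score as covariates 2 members passed the edgeR test for BPA in WT, Dnah2 (0.47, adjusted p = 0.0240) and Dnah11 (0.67, adjusted p = 0.0433). Over the other 6 alternatives their adjusted p was 0.152 to 0.806 and 0.121 to 0.762. Liver transcripts stood out in this group: 8 of 9 liver markers were at least 2-fold higher than in WT vehicle (median log2 difference 5.59, none called), and they summed to 1083 CPM in T61 and 125 CPM in T75 against 22.3 to 26.5 CPM in WT vehicle. Their part in the member levels was not tested. The ranges overlapped for every member, while 8.1% of all genes did not overlap. With stigmasterol in WT 9 of 10 were positive (-0.03 to 0.79, smallest edgeR adjusted p = 0.647, beside 0.00494% of all genes called). Dnah11 read 2.11, 2.33, 2.06 and 1.20 CPM in the WT vehicle group and 2.45, 2.47, 2.55 and 2.77 CPM in the WT stigmasterol group, without overlap, as for 3.44% of all genes. This difference, 0.41 ± 0.22 on the log2 scale, did not pass the test.

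In KO animals given BPA all 10 members were lower than in KO vehicle (-1.34 to -0.04, every edgeR adjusted p at 0.896 or above, beside 0.0148% of all genes called). Foxj1 (2.60 to 3.55 against 3.70 to 13.6 CPM) and Rsph1 (5.34 to 6.56 against 7.63 to 15.9 CPM) did not overlap, as for 11.1% of all genes. Without T1, 4 of the 10 differences were positive and their median went from -0.48 to -0.13. With stigmasterol in KO 2 of 10 were positive (-1.02 to 0.17, every edgeR adjusted p at 1.00, beside 0% called), and 8 of 10 without T1. No member kept these groups apart, as 9.59% of all genes did. The 2 KO comparisons share the vehicle animals, as do the 2 WT ones. These vehicle animals also entered the genotype differences known when the members were chosen.

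At an unadjusted p under 0.05 there were 2 members (Dnah2 and Dnah11) for BPA in WT, 2 (Dnah6 and Foxj1) for BPA in KO and none for stigmasterol in either genotype. Over all 20254 genes these numbers were 3798 and 1672 for BPA and stigmasterol in WT, and 873 and 779 in KO. No other cilia gene was called by edgeR in any of the 4 treatment comparisons, with 11, 5, 8 and 3 of 89 at an unadjusted p under 0.05 for BPA and stigmasterol in WT and BPA and stigmasterol in KO. DESeq2 called 3 of them for BPA in WT and none in the other 3. The interaction of treatment and genotype had edgeR adjusted p of at least 0.536 for every member. In the authors' deposited table the adjusted p-values of the 10 members in these comparisons were 0.18 to 1, and the log2 ratio of Dnah6 for BPA in KO was -1.34 with an adjusted p of 0.38.

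The genes whose log2 level was most like each member's over the 21 libraries, by Pearson r among 15995 candidates, differed between members. Dnah3 was nearest to Dao (r = 0.91), Lrrc71 and Ccdc146 (both 0.83), and Tekt1 to Trp73, a p53-family factor of multiciliated cells (0.89), Dao (0.86) and Gpr157 (0.83). Foxj1 was nearest to Myb, a regulator of multiciliated cells (0.90), Cdkl4 (0.86) and Fndc7 (0.85), and Dnah5 to Wdr66 (0.82), Ccdc11 (0.73) and Pnoc (0.72). Dnah9 was nearest to Dnah3 (0.74), Cpa6 (0.74) and Slc35a3 (0.71). Dnah6, which separates the genotypes, was nearest to Tchh (0.91), Grin2c (0.90) and St6galnac1 (0.89). Rsph1 was nearest to Evi5l, Sod2 and Otop2 (0.92 to 0.93), Dnah2 to Ero1l, Hace1 and Rpl3l (all 0.93), Dnah1 to Ppfia4, Phka2 and Plch2 (0.85 to 0.87), and Dnah11 to Gclc (0.83), Tcte1 (0.81) and Mbd3l2 (0.78). Among the members themselves 43 of 45 pairs had positive r, with a median of 0.45 and a range of -0.10 to 0.79. The r of each nearest gene is the highest of many, and every r here is a description over libraries that share depth and tissue makeup.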

How the data were processed

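RNA of 21 testes, 1 per mouse, was sequenced without strand information, going by the kit named in the labels' protocols. The authors deposited 1 table with raw read counts per gene and animal, and these deposited counts were the input of every fit. Deposited normalized signal columns, per the file headers, equal the counts divided by 1 factor per library. This was checked on genes with many reads, 100% of which lay within 0.1%. Apart from that check, these columns only gave the authors' gene lengths, through the columns divided by length. The authors' deposited log2 ratios, p-values and adjusted p-values for treatment against vehicle are quoted where named. CASAVA 1.8.2, TopHat2 2.0.10, Bowtie2 2.1.0, Bowtie and mm10 are named in the submitters' processing notes, and these sources name no read counter.

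The tests came from the quasi-likelihood method of edgeR 4.0.16 (R 4.3.3) after TMM scaling and filterByExpr (minimum count 10, minimum total count 15). All 6 groups entered with their own means (15 residual degrees of freedom), with two-sided p-values adjusted by Benjamini-Hochberg over 20254 genes at 0.05. Slopes came from the same model with log2 Cdh16 and the spermatocyte score added (13 residual degrees of freedom). Log2 levels for scores used a prior count of 2. SE is the log2 difference over the root of its F statistic. Exon lengths came from the GENCODE annotation of the same build, since the authors' lengths for Dnah2, Dnah9 and Dnah11 (2.62, 2.23 and 4.49 kb) are far shorter than the exons (15.0, 15.9 and 14.5 kb). The fits were tested on simulated data. Alternatives used DESeq2 1.42.0 and limma-voom (limma 3.58.1). Replicates are single animals, and as litters are not given, p-values measure the spread between these animals.

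The members and all lists were chosen with earlier results of these data known. Named were all members, Cdh16, up to 4 called genes with the smallest p of each cilia list in a contrast or slope, and the 3 genes most like each member. Further names were picked after their values were seen.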

Additional observations from a re-analysis of the deposited data

Results flagged for a closer look

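In groups of 4 animals, a library was marked where its gap to the nearest of the others exceeded Dixon's 95% limit for the group's range. This was examined in 33 WT groups (10 members and Cdh16 in 3 groups each), of which 4 were marked, and chance marks about 1 in 20. Dnah9 was 2.24 CPM in WT BPA animal T75, against 1.40 CPM in the next. Dnah11 was 2.24 CPM in WT BPA animal T61, below the next at 2.93 CPM. Tekt1 was 0.899 CPM in WT BPA animal T60, below the next at 1.22 CPM. Cdh16 was 17.6 CPM in WT vehicle animal T81, against 0.380 CPM in the next. The KO groups hold 3 animals each and were not examined this way, so T1 could not be marked.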

How the results depend on the processing

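Counts of other cilia genes called moved as follows. Under vehicle the 3 genotype calls became 9 with DESeq2, 1 without the filter on low counts, 0 with only the groups compared and 0 without the 9 libraries rich in Cdh16 (10 CPM and over). Under BPA the 1 call became 2 with the covariates, 3 with DESeq2, 2 with only the groups compared and 0 without those libraries. Under stigmasterol the 7 became 2 with only the groups compared and 0 without those libraries, and the averaged 15 became 7 with the covariates and 0 without those libraries. BPA in WT went from 0 to 2 with the covariates and 3 with DESeq2, and the Cdh16 slope from 2 to 0 without the filter and to 0 with that covariate alone. Left-out animals gave 1 (without T1) to 4 calls under vehicle, 0 to 1 under BPA, 3 (without T10, T118 or T119) to 5 under stigmasterol for the 7 animals compared and up to 8 for animals of other groups (T1 or T81), 8 (without T1) to 19 averaged, 0 to 1 for BPA in WT, 0 to 3 for the Cdh16 slope and 27 to 36 for the score slope. The causes were not tested.

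Uncalled treatment values of members changed sign without the libraries rich in Cdh16 (log2): Dnah1 to 0.16 and Dnah3 to 0.71, Dnah5 to 0.34 and Tekt1 to 0.13 for BPA in KO, Dnah1 to -0.060, Dnah2 to 0.087, Dnah3 to 0.45 and Tekt1 to 0.21 for stigmasterol in KO, and Tekt1 to -0.053 for stigmasterol in WT. With the covariates Dnah2 went to 0.0020 for stigmasterol in KO, Dnah6 to -0.32 for BPA in WT and Rsph1 to -0.017 for stigmasterol in WT, and with limma-voom Foxj1 went to 0.054 for stigmasterol in KO. Leaving out 1 animal at a time also turned signs. For BPA in KO the values ran Dnah1 from -0.19 to 0.085, Dnah3 from -1.69 to 0.60, Dnah5 from -0.77 to 0.48, Dnah9 from -0.78 to 0.085, Tekt1 from -0.53 to 0.21. For stigmasterol in WT the values ran Dnah1 from -0.14 to 0.073, Rsph1 from -0.098 to 0.49, Tekt1 from -0.049 to 0.21. For stigmasterol in KO the values ran Dnah2 from -0.15 to 0.11, Dnah3 from -1.56 to 0.80, Dnah5 from -0.19 to 1.06, Dnah9 from -0.80 to 0.12, Foxj1 from -0.43 to 0.77, Rsph1 from -0.63 to 0.25, Tekt1 from -0.38 to 0.36. For BPA in WT the values ran Dnah6 from -0.20 to 0.46. The positive ends for BPA and stigmasterol in KO were reached without T1, except for Dnah1 (without T83) and Dnah2 (without T93). Of the other member values outside left-out animals, 595 were counted as unchanged, 29 moved and 2 passed the threshold. The 2 were Dnah2 and Dnah11 for BPA in WT, with the covariates. For a treatment, unchanged meant the same direction and side of the threshold. For a genotype difference it meant a shift below the SD between libraries, and for a slope below its SE. Those could still change sign or side of the threshold. Without the libraries rich in Cdh16, averaged Dnah5 went from 0.04 to -0.32 and Dnah9 from 0.08 to -0.08. DESeq2 gave no adjusted p for 9 member values, which were left out. No paired analysis was possible because animal numbers are not shared between groups. Depth limits Dnah6 in WT, at 2 to 21 reads.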

Other observations

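The members' neighbourhoods on their chromosomes were compared by genotype, as a description chosen after the data were seen. Within 2 Mb of Dnah6, 39 other genes were tested, none of which kept the 12 WT and 9 KO libraries apart, and 4 were called between genotypes. Btbd9 kept the genotypes apart near Rsph1 (1 of 62) and Itgae near Tekt1 (1 of 69), and no gene did so around Dnah1, Dnah2, Dnah3, Dnah5, Dnah9 or Dnah11.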
